A study of Mus musculus with 28 samples.

Results

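The TAM receptors are 3 receptor tyrosine kinases, Tyro3, Axl and Mertk, and they share the ligands Gas6 and Pros1 (protein S). All 5 genes were found by symbol among the 24062 genes of the count table, and all 5 passed the low count filter that kept 16369 genes. They were chosen by a result of these same data: Tyro3 had the smallest p of all genes for navitoclax against its vehicle in 3xTg mice, and the other 4 genes were added as its family. The comparison of those libraries is therefore given as values only, and the difference of Tyro3 is not tested wherever either group of that comparison enters.

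Gas6 and Pros1 bind phosphatidylserine on the surface of dying cells and synaptic or membrane debris, and the TAM receptors bind the ligands, so that the ligand forms a bridge between the debris and the cell that engulfs it. The ligands need vitamin K dependent carboxylation to bind phosphatidylserine. TAM signalling in phagocytes also restrains inflammatory cytokine responses. In the brain, Tyro3 is known mainly from neurons, Mertk from microglia and astrocytes, and Axl from activated microglia. Gas6 activates all the receptors and Pros1 acts mainly through Tyro3 and Mertk. The extracellular part of Axl and Mertk can be cut off by membrane proteases.

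Messenger RNA of the hippocampus of female mice was sequenced in 7 groups of 4 libraries. The 3xTg mice (3xTg-AD) model Alzheimer's disease and carry human amyloid precursor protein and tau transgenes under a neuronal Thy1 promoter, together with a mutated presenilin 1. The 4 groups of 3xTg mice received navitoclax (ABT263, labelled NAVI, which blocks the survival proteins of the BCL-2 family), dasatinib with quercetin (DQ, a kinase inhibitor with a plant flavonol), or 1 of the vehicles labelled VehN and VehD. The 3 groups of wild-type mice (BL6/129, here WT) received NAVI, DQ or a vehicle labelled Veh. Sample titles name the mice as 3xTg or BL6129. Effects of the transgenes and of other differences between these lines cannot be told apart in the genotype comparisons. Both drug treatments are used to remove senescent cells. Nothing in the sources used here gives ages, doses or schedules, and the labels do not say that each library is a separate animal, so p-values measure the spread between these libraries.

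The libraries held 32080861 to 54019519 counts, and each of the 5 genes had at least 696 counts in each library. App, the mouse gene that also catches reads of the human transgene, was at 2410 to 3805 CPM (counts scaled to a common library size with TMM factors) in the 16 3xTg libraries and at 1469.5 to 1799.5 in the 12 WT libraries, with no overlap. Markers of the hippocampus were present in all libraries, with Prox1 of dentate granule cells at 36.2 to 75.1 CPM and Wfs1 of CA1 neurons at 72.8 to 176 CPM. The choroid plexus gene Ttr ran from 27.9 to 5366 CPM. The score of 12 choroid plexus genes (the mean log2 CPM relative to all libraries) split the libraries into 14 with high scores (1.15 to 2.34) and 14 with low scores (-2.63 to -0.22). All 4 libraries of 3xTg VehN were among the high ones. The other groups had 1 or 2 of their 4 libraries there.

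The promoters of Axl and Pros1, the members that were higher in 3xTg than in WT, are shown first. Each sequence runs from 250 bases before to 50 bases after the annotated start, from RefSeq on build GRCm38.p6, 5′ to 3′ on the strand of the gene. Capitals mark the GC box, the letters GGGCGG on either strand, which is the core site of SP1-type factors. Axl lies on the minus strand at chr7:25788684-25788983 and Pros1 on the plus strand at chr16:62854057-62854356.
Axl: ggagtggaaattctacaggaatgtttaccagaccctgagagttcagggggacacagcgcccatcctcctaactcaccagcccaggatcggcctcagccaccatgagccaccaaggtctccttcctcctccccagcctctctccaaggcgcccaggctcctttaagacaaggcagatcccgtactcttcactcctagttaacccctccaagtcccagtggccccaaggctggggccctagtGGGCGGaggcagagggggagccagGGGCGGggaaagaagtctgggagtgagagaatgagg
Pros1: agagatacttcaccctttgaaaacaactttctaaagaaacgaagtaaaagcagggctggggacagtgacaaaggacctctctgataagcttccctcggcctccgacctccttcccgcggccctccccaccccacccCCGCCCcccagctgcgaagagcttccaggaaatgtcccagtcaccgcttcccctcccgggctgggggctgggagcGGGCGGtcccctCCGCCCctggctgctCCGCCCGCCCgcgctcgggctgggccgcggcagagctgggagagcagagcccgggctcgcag
The Axl window held 2 GC boxes and the Pros1 window 5, some of them overlapping. The windows of Tyro3, Mertk and Gas6 held 6, 4 and 4. At least 1 match was held by 35.7% of all 32851 promoters of this length. The GC content was 60.3% in the Axl window and 66.7% in the Pros1 window, against a median of 52.7% over all promoters. A match is a description of the letters in this window and says nothing about binding.

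In the mouse genome (GRCm38, GENCODE M21 annotation), Tyro3 spans chr2:119797733-119818104 on the plus strand, and Mertk lies on the same chromosome and strand at chr2:128698956-128802894. Axl spans chr7:25757273-25788705 on the minus strand. Gas6 spans chr8:13465374-13494490 on the minus strand, and Pros1 spans chr16:62854307-62929346 on the plus strand. An exon of Gas6 overlaps an exon of Tmem255b on the opposite strand. Tmem255b had 20 to 101 counts per library, at most 2.61% of the Gas6 count, and without a stated strand setting reads of the shared stretch cannot be told apart.

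Per kilobase of the longest transcript, Gas6 was the highest of the 5 messages with a mean of 30.6 ± 6.71 CPM per kb (SD, n = 28 libraries), followed by Tyro3 at 25.1 ± 3.85, Axl at 14.8 ± 1.52, Mertk at 12.3 ± 1.53 and Pros1 at 8.25 ± 1.94. The order Tyro3, Axl held in 28 of 28 libraries, as did the order Mertk, Pros1. Axl was above Mertk in 24 of 28. Gas6 was above Tyro3 in 18 of 28, and their ranges overlapped (19.5 to 43.9 and 17.3 to 33.3 CPM per kb). The difference between these neighbours was not tested. Among all tested genes the mean log2 CPM of Tyro3 stood at the 86.8th percentile and that of Pros1 at the 58.3rd.

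**Figure D1:**
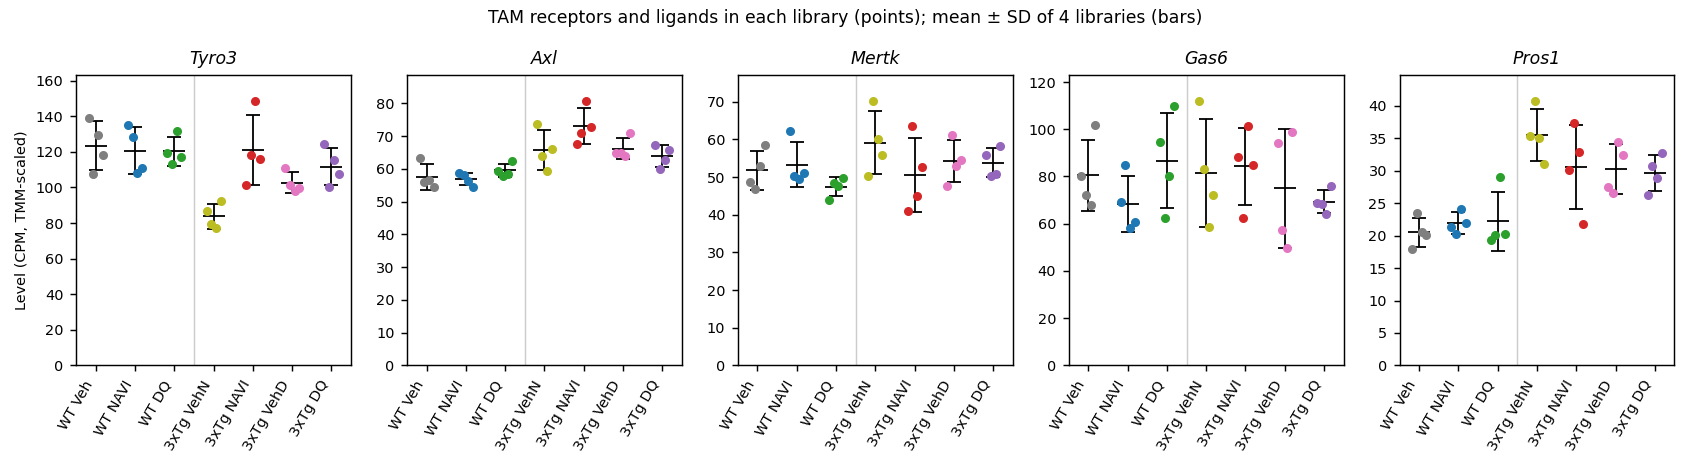
CPM (TMM-scaled, vertical axis from 0) of the 5 genes in each of the 28 libraries, by group; points are libraries and bars the mean ± SD of 4. Tyro3 is lowest in 3xTg VehN (77.03 to 92.3 CPM), Axl and Pros1 are higher in most 3xTg libraries than in WT, and Gas6 spreads from 49.7 to 112 CPM across the libraries.

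The receptors were compared between genotypes first. Axl, the receptor known from activated microglia, was higher in 3xTg than in WT. In WT its level was 63.3, 56.1, 56.5 and 54.4 CPM with vehicle, 58.7, 58.3, 56.2 and 54.5 with NAVI, and 59.4, 57.8, 58.4 and 62.6 with DQ. In 3xTg it was 73.8, 64.0, 59.4 and 66.0 with VehN, 64.9, 65.0, 63.9 and 71.1 with VehD, 67.7, 70.9, 80.8 and 73.0 with NAVI, and 67.3, 59.9, 62.8 and 65.9 with DQ. Of the 16 3xTg libraries, 13 were above the highest WT library. Over all treatments (the mean of the 3 genotype differences, with vehicle as the mean of VehN and VehD) the log2 difference was 0.22 (SE 0.0353, edgeR quasi-likelihood test, adjusted p = 8.37e-05), a rise of 16.5%.

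Within treatments, Axl rose by 0.36 (SE 0.0638, edgeR adjusted p = 0.00124) in 3xTg with NAVI against WT with NAVI, and these libraries did not overlap. With vehicle it rose by 0.20 (SE 0.0557, edgeR adjusted p = 0.0231), and the groups overlapped, with 3xTg at 59.4 to 73.8 CPM and WT at 54.4 to 63.3. That call was lost against either 3xTg vehicle alone, with an edgeR adjusted p of 0.0761 for VehD and 0.0527 for VehN at log2 differences of 0.20 and 0.19. With DQ the log2 difference was 0.10 (95% interval -0.03 to 0.24, edgeR adjusted p = 0.402). The genotype difference was not tested between treatments.

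Pros1, the ligand that also circulates as an anticoagulant cofactor, had the largest fitted genotype difference of the 5 genes over all treatments. In WT it was at 17.95, 23.5, 20.5 and 20.2 CPM with vehicle, at 21.4, 20.3, 24.2 and 21.9 with NAVI, and at 19.3, 20.2, 29.1 and 20.3 with DQ. In 3xTg it was at 35.3, 40.8, 35.0 and 31.1 with VehN, at 27.5, 26.5, 34.5 and 32.4 with VehD, at 30.2, 37.4, 32.8 and 21.9 with NAVI, and at 26.2, 30.7, 28.8 and 32.8 with DQ. With vehicle the genotypes did not overlap, and 11 of all 16 3xTg libraries were above the highest of all 12 WT libraries. The log2 difference was 0.52 over all treatments (SE 0.0771, edgeR adjusted p = 2.78e-05), a rise of 43.8%.

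With vehicle Pros1 rose by 0.68 on the log2 scale (SE 0.123, edgeR adjusted p = 0.00108). It rose against WT vehicle with VehN alone (0.79, edgeR adjusted p = 0.00120) and with VehD alone (0.56, edgeR adjusted p = 0.0214). With NAVI it rose by 0.48 (SE 0.139, edgeR adjusted p = 0.0400), and 3xTg NAVI replicate 4, at 21.9 CPM, lay within the WT range of 20.3 to 24.2. Leaving out any 1 of the 8 libraries other than that replicate ended the call, with edgeR adjusted p values of 0.0606 to 0.130. With DQ the log2 difference was 0.42 (SE 0.139) with an edgeR adjusted p of 0.112. Without WT DQ replicate 3, which at 29.1 CPM was the highest WT library, it was 0.57 with an edgeR adjusted p of 0.0244.

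Mertk, the receptor that mediates engulfment by microglia and astrocytes, ran from 41.0 to 70.2 CPM in 3xTg (median 53.8) and from 44.0 to 62.1 in WT (median 49.6). With vehicle it was at 48.7, 46.9, 53.0 and 58.5 CPM in WT, at 50.3, 70.2, 60.2 and 55.9 in 3xTg VehN and at 47.7, 61.3, 53.0 and 54.6 in 3xTg VehD. With NAVI it was at 62.1, 50.2, 49.5 and 51.1 in WT and at 41.0, 63.6, 44.9 and 52.6 in 3xTg, and the genotypes overlapped under both treatments. Its log2 difference over all treatments was 0.08 (95% interval -0.05 to 0.21, edgeR adjusted p = 0.467). With DQ the 4 3xTg libraries, at 55.8, 50.3, 50.8 and 58.3 CPM, were all above the WT ones at 44.0, 48.5, 47.6 and 49.8. The edgeR adjusted p was 0.414 there at a log2 difference of 0.18.

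Gas6, the ligand of all the receptors, ran from 49.7 to 112 CPM in 3xTg (median 73.9) and from 58.3 to 110.0 in WT (median 76.2). In WT it was at 80.0, 72.3, 68.1 and 102 CPM with vehicle, at 69.3, 84.8, 58.3 and 60.9 with NAVI, and at 94.5, 62.5, 80.0 and 110.0 with DQ. In 3xTg it was at 112, 83.3, 58.5 and 72.0 with VehN, at 94.1, 57.2, 49.7 and 98.8 with VehD, at 88.3, 62.3, 102 and 84.9 with NAVI, and at 68.9, 68.6, 64.0 and 75.8 with DQ. The genotypes overlapped under each treatment, and the spread within most groups was wide. The log2 difference over all treatments was -0.02 (95% interval -0.27 to 0.22, edgeR adjusted p = 0.939), so falls and rises within that interval are not excluded. With vehicle it was -0.04 (edgeR adjusted p = 0.891). Without the 8 libraries with the highest score of thalamus and habenula genes, a set chosen after seeing the data, it was -0.51 (edgeR adjusted p = 0.0289), with 4 3xTg and 3 WT libraries left in that comparison. That set took out the 3xTg vehicle libraries with the highest Gas6, at 112, 83.3, 94.1 and 98.8 CPM. Those kept were at 58.5, 72.0, 57.2 and 49.7. The WT vehicle library taken out was at 72.3 CPM, and those kept at 80.0, 68.1 and 102.

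Tyro3, the receptor known from neurons, was at 139, 108, 129 and 118 CPM in WT with vehicle, at 135, 128, 108 and 111 with NAVI, and at 119.6, 113, 131 and 117 with DQ. In 3xTg with VehD it was at 111, 101, 98.1 and 99.9, and with DQ at 124, 100.0, 115 and 108. These are the 3xTg groups that the choice of the family did not use. Against WT vehicle, VehD differed by -0.27 on the log2 scale (SE 0.0993, edgeR adjusted p = 0.126), where 3.81% of all genes passed. With DQ the genotype difference was -0.11 (95% interval -0.31 to 0.10, edgeR adjusted p = 0.582).

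Counted together, 2 of the 4 tested members, Axl and Pros1, rose in 3xTg over all treatments, and 0 fell, where 14.4% of all 16369 genes passed the edgeR test. Tyro3 was not tested there. Its fitted log2 difference was -0.17, a description, since it holds the values that chose the family. With vehicle the count was 2 of 4, where 13.1% of genes passed. With NAVI it was 2 of 4, where 5.98% of genes passed. With DQ it was 0 of 5, where 3.05% of genes passed, and 1 member, Pros1, had an unadjusted p under 0.05. DESeq2 and limma-voom also called 0 of the 5 with DQ.

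**Figure D2:**
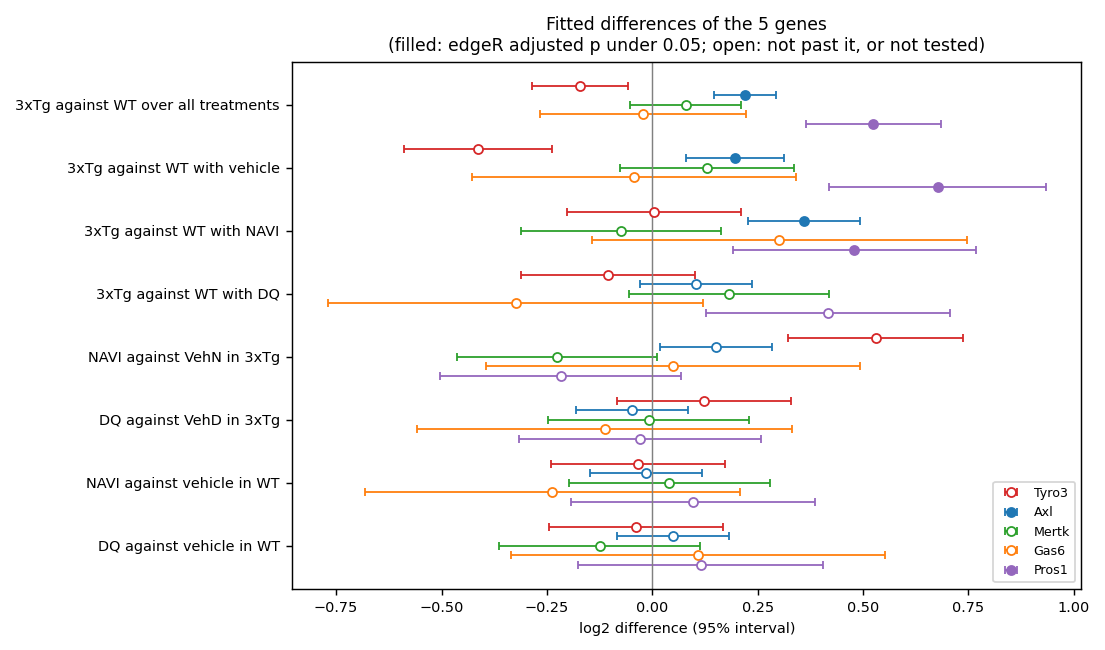
Fitted log2 difference (horizontal axis) of each gene in 8 comparisons with its 95% interval; filled points passed the edgeR adjusted p, open points did not or were not tested. Axl and Pros1 are filled in the comparisons of genotypes over all treatments, with vehicle and with NAVI. No point is filled in the tested drug comparisons. All points of NAVI against VehN in 3xTg are open because none was tested, as are those of Tyro3 wherever either group enters. Their intervals are descriptions.

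The microglial and astrocyte markers moved with genotype in the same libraries, where 14.4% of all 16369 genes passed over all treatments. Of 14 markers of activated microglia 13 rose in 3xTg over all treatments (median log2 difference 0.79, against -0.00 over all genes), and their summed level was 899 to 1590.4 CPM in 3xTg and 702 to 894 in WT, with no overlap. Of 12 markers of homeostatic microglia 7 rose, with sums of 560.03 to 738 CPM in 3xTg and 442 to 565 in WT. Of 12 markers of reactive astrocytes 8 rose, with sums of 1032 to 2774 CPM in 3xTg and 606 to 1029 in WT. Highly expressed genes weigh most in such sums. The score of these 12 genes, which weighs them equally, overlapped between genotypes. It reached down to -0.26 in 3xTg DQ and up to 0.14 in WT DQ. Some markers of other cells passed too, to be read against the same 14.4% of all genes. Of 12 general astrocyte markers 4 rose, with sums of 7117 to 8815 CPM in 3xTg and 6734 to 8105 in WT, and 3 of 10 oligodendrocyte markers rose (median log2 difference 0.28). Of 10 endothelial markers 4 fell (median -0.22), as did 3 of 12 neuron markers, 3 of 10 dentate granule cell markers and 1 of 10 CA1 markers. Of 10 border macrophage markers 1 rose, as did 1 of 10 for pericytes and smooth muscle, and 0 of 10 leptomeningeal, 0 of 12 choroid plexus and 0 of 14 thalamus markers passed by edgeR. No marker of the microglial and astrocyte lists was at 0 in any library. In bulk tissue more cells of a type and more RNA per cell cannot be told apart, and the part of the cell make-up in the Axl and Pros1 results was not tested.

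The make-up of the receptor messages was compared per length. Axl made up 30.4% ± 1.99 of the summed receptor CPM per kb in 3xTg (SD, n = 16) and 25.9% ± 1.44 in WT (n = 12), with ranges of 27.9 to 35.7% and 23.5 to 27.97%. Tyro3 made up 45.0% ± 4.39 and 51.7% ± 1.80, and Mertk 24.5% ± 3.96 and 22.4% ± 1.84. The sum of the 3 receptors was 51.9 ± 4.44 CPM per kb in 3xTg and 52.7 ± 3.27 in WT. Pros1 made up 24.5% ± 5.19 of the ligand messages in 3xTg and 17.96% ± 3.90 in WT, and Gas6 the rest. These shares hold values of Tyro3 that chose the family, or follow from the gene values above, and were not tested.

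**Figure D3:**
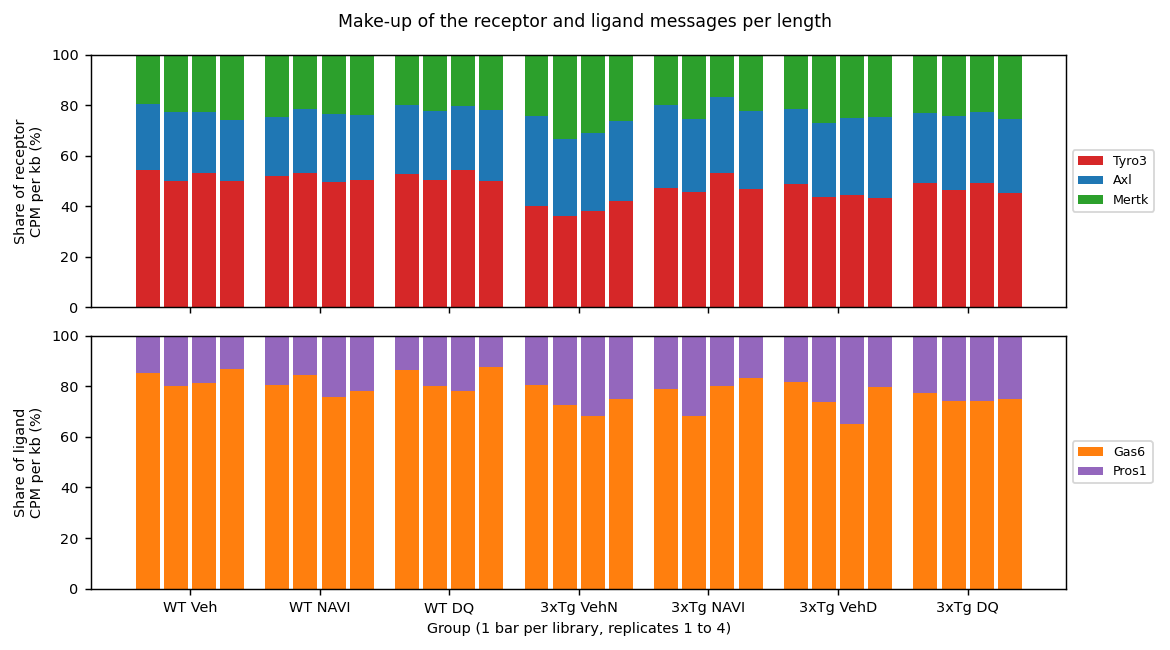
Shares of the summed CPM per kb (percent, stacked bars from 0 to 100) of the 3 receptors (top) and 2 ligands (bottom) in each library, by group. The Tyro3 share is lowest in 3xTg VehN (36.2 to 42.1%), and the Pros1 share spans 16.6 to 34.9% in 3xTg and 12.5 to 24.2% in WT.

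The drug comparisons that the choice of members did not use asked whether DQ or NAVI changed the messages. With DQ against VehD in 3xTg, 0 of 5 members passed the edgeR test, where 0% of all genes passed (299 genes had an unadjusted p under 0.05, and DESeq2 and limma-voom also called 0 genes). The log2 differences were 0.12 for Tyro3, -0.05 for Axl, -0.01 for Mertk, -0.11 for Gas6 and -0.03 for Pros1. The 95% intervals reached from -0.18 to 0.08 for Axl and from -0.56 to 0.33 for Gas6. Tyro3 libraries overlapped between DQ (100.0 to 124 CPM) and VehD (98.1 to 111).

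With NAVI against vehicle in WT, 0 of 5 members passed the edgeR test, where 0% of all genes passed (1267 at an unadjusted p under 0.05, and 3 genes called by DESeq2 and 3 by limma-voom). The log2 difference was -0.03 for Tyro3 (95% interval -0.24 to 0.17), -0.02 for Axl, 0.04 for Mertk, -0.24 for Gas6 (-0.68 to 0.21) and 0.10 for Pros1. With DQ against vehicle in WT, 0 of 5 members passed, where 0.00611% of genes passed. The differences ran from -0.12 for Mertk to 0.11 for Gas6 and for Pros1. The DQ effect did not pass the test of a difference between genotypes for any of the 5, where 0% of genes passed by edgeR (467 at an unadjusted p under 0.05, 1 called by DESeq2 and 0 by limma-voom). In these 4 comparisons 0 of 5 members had an unadjusted p under 0.05, and DESeq2 and limma-voom called 0 of 5. WT NAVI and WT DQ shared the same vehicle libraries.

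The values that chose the family were those of Tyro3 in 3xTg with NAVI and VehN. Tyro3 was at 101, 118, 149 and 116 CPM with NAVI and at 86.6, 79.3, 77.03 and 92.3 with VehN. The 4 VehN libraries were the lowest of all 28, and NAVI replicate 3 was the highest. The fitted log2 difference was 0.53 (SE 0.0997). Against the mean of VehN and VehD it was 0.38, and VehN against VehD gave -0.29, with the VehN libraries all below the VehD ones. The NAVI mean of 121 ± 19.8 CPM (SD, n = 4) lay beside the WT vehicle mean of 123.6 ± 13.7 (n = 4), and 3xTg NAVI against WT NAVI gave 0.00. In the same comparison with VehN the other members gave 0.15 for Axl, -0.23 for Mertk, 0.05 for Gas6 and -0.22 for Pros1, and for each of these the libraries overlapped. The NAVI difference in 3xTg minus that in WT was 0.56 for Tyro3. None of these was tested.

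Some properties of the libraries moved with this comparison. All 4 VehN libraries, and 2 of the 4 NAVI libraries, had high choroid plexus scores, with summed levels of 3754 to 8903 CPM in VehN and 461 to 5531 CPM in NAVI. A fit with both tissue scores as covariates gave 0.50 for Tyro3. The slope of log2 CPM on the GC content of genes ran from -0.34 to 0.11 per 10 percentage points in VehN and from -0.05 to 0.29 in NAVI, and the Tyro3 transcript has a GC content of 55.4% against a median of 49.7% over the tested genes. After removal of each library's GC trend the Tyro3 difference was 0.36 and the Axl difference 0.03. Their part in the Tyro3 values was not tested further.

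The genes were then compared across libraries, as deviations from their group means so that genotype and treatment differences do not enter. Over all 28 libraries Axl and Tyro3 had r = 0.65, a description, since it holds the Tyro3 values that chose the family. In the 20 libraries without 3xTg NAVI and VehN, a set chosen after seeing the data, their r was 0.524 (permutation p = 0.0451, adjusted p = 0.451; Spearman rho = 0.597, permutation p = 0.0174, adjusted p = 0.174, over 10 pairs of members), and 0.367 without the 2 libraries farthest from the median. Axl and Gas6, a receptor with its ligand, had r = 0.554 over 28 libraries (permutation p = 0.00787, adjusted p = 0.0393) and rho = 0.504 (permutation p = 0.0140, adjusted p = 0.0700), with r = 0.436 without the 2 farthest libraries. For Axl and Gas6 the r was 0.653 in the 16 3xTg libraries (adjusted permutation p = 0.0704), 0.321 in the 12 WT libraries (0.660) and 0.411 in the 20 libraries (0.491). In those 20 libraries 0 of the 10 pairs passed, and 1 pair, Axl with Tyro3, had an unadjusted p for r under 0.05.

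The 5 genes were also set against 13 marker list scores and the GC slope, 70 relations in all. The Tyro3 relations are counted in the adjustment and not given. Over 28 libraries Pros1 followed the reactive astrocyte score (r = 0.655, permutation p = 0.000770, adjusted p = 0.0135; rho = 0.669, permutation p = 0.000990, adjusted p = 0.0173), with r = 0.686 without the 2 farthest libraries. That relation did not pass in the 16 3xTg libraries (r = 0.617, adjusted permutation p = 0.158), in the 12 WT libraries (r = 0.719, 0.150) or in the 20 libraries (r = 0.679, 0.0866).

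Gas6 followed the ribosomal protein score (r = 0.759, permutation p = 4.00e-05, adjusted p = 0.00140; rho = 0.748, permutation p = 8.00e-05, adjusted p = 0.00280) and the GC slope (r = 0.837, permutation p = 2.00e-05, adjusted p = 0.00140; rho = 0.812, permutation p = 6.00e-05, adjusted p = 0.00280). Without the 2 farthest libraries these were 0.689 and 0.792. Both passed in 3xTg (r = 0.75 and 0.841, adjusted permutation p = 0.0416 and 0.0373) and in the 20 libraries (r = 0.709 and 0.823, 0.0241 for both), and neither in WT (r = 0.78 and 0.833, 0.150 for both).

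Axl followed the same pair of measures over 28 libraries, with r = 0.729 (permutation p = 0.000390, adjusted p = 0.00910; rho = 0.711, permutation p = 0.000330, adjusted p = 0.00770) and r = 0.646 (permutation p = 0.00290, adjusted p = 0.0406; rho = 0.628, permutation p = 0.00277, adjusted p = 0.0388). Without the 2 farthest libraries these were 0.602 and 0.588. Both passed in 3xTg (r = 0.862 and 0.791, adjusted permutation p = 0.0373 and 0.0472). Neither passed in WT (r = 0.479 and 0.362, 0.610 and 0.666) or in the 20 libraries (r = 0.595 and 0.448, 0.204 and 0.351), and the difference between genotypes was not tested. With the activated microglia score Axl had r = 0.543 over 28 libraries and did not pass (adjusted permutation p = 0.174). Without the 2 farthest libraries that r was 0.283. It was 0.826 in the 16 3xTg libraries and -0.200 in the 12 WT libraries. The Gas6 and Axl transcripts have GC contents of 56.6% and 54.2%, and those of Mertk and Pros1 48.1% and 43.4%. The part of the GC slope in the correlation of Axl with Gas6 was not tested.

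**Figure D4:**
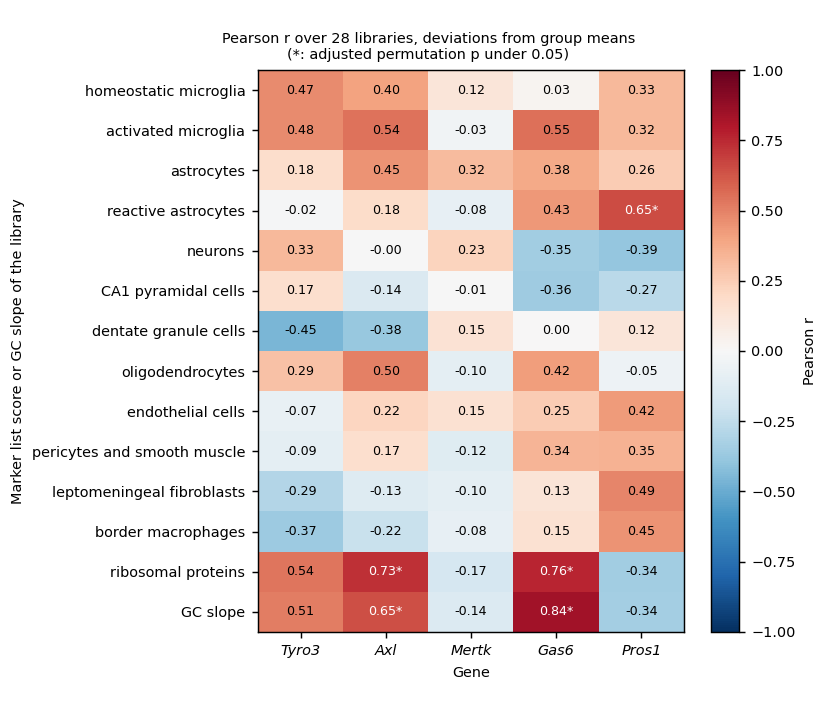
Pearson r (colour and printed value) of each gene with 13 marker list scores and with the GC slope of the library, from deviations from group means over 28 libraries; stars mark adjusted permutation p values under 0.05. The starred cells are Pros1 with reactive astrocytes (0.65) and Axl and Gas6 with ribosomal proteins (0.73 and 0.76) and the GC slope (0.65 and 0.84). The Tyro3 column is a description, since it holds the values that chose the family.

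Gas6 was also set against the choroid plexus score, for which no pooled correlation is given because the libraries form separate sets. In the 14 libraries with high choroid plexus scores Gas6 ran from 58.5 to 112 CPM with a median of 91.2, and in the 14 with low scores from 49.7 to 84.9 with a median of 66.0. Within the high set, as deviations from genotype means, r was 0.668 (permutation p = 0.0144, adjusted p = 0.204 over 20 relations; rho = 0.684, permutation p = 0.0102, adjusted p = 0.204), and 0.531 without the 2 farthest libraries. Within the low set r was -0.04 (permutation p = 0.906, adjusted p = 0.939; rho = -0.10, permutation p = 0.736, adjusted p = 0.941). None of the relations of Axl, Mertk, Gas6 and Pros1 with the choroid plexus and thalamus scores within sets of libraries passed at an adjusted permutation p under 0.05, with the Tyro3 relations counted in the adjustment over 20. In the 7 libraries with the highest thalamus scores Gas6 was at 83.3 to 112 CPM, and in the other 21 at 49.7 to 102.

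**Figure D5:**
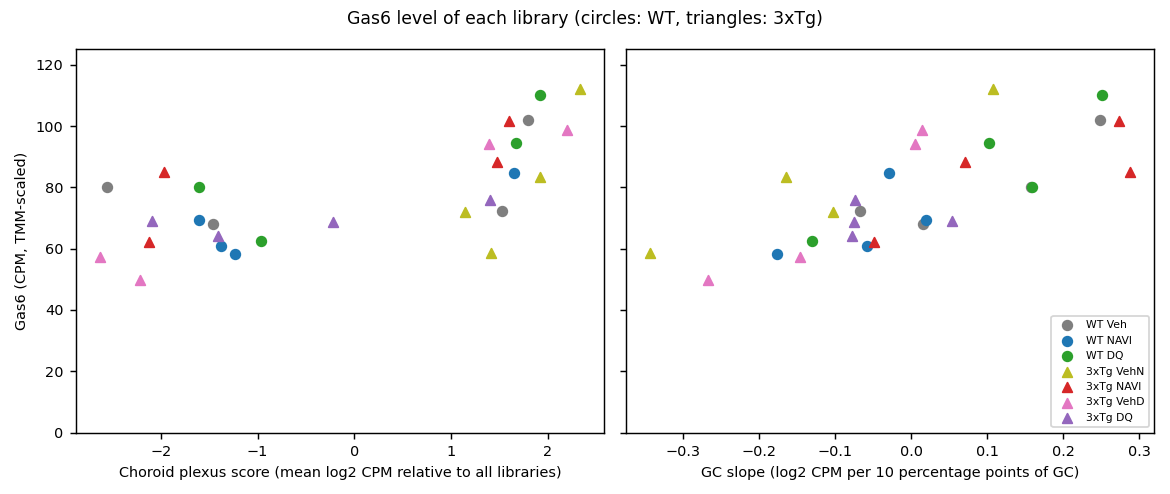
Gas6 level (CPM, vertical axis from 0) of each library against its choroid plexus score (left) and its GC slope (right); circles are WT and triangles 3xTg libraries, coloured by group. The libraries form separate sets on the left axis, with Gas6 medians of 91.2 CPM at high and 66.0 CPM at low scores, and Gas6 rises along the right axis in both genotypes.

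For each member, the 4 genes with the highest Pearson r of log2 CPM over all 28 libraries were named, among the 11526 genes whose mean log2 CPM reached 2. These r are descriptions and hold the group differences. For Tyro3 they were Ttc9b (0.90), the kinase gene Prkcz (0.90), Sh2d5 (0.89) and Ttll1 (0.89). For Axl they were Gpam (0.92), the astrocyte filament gene Gfap (0.91), the microglial receptor gene Trem2 (0.90) and Dhrs1 (0.89). For Mertk they were Htra1 (0.77), Hif3a (0.75), Ddx17 (0.72) and Spire1 (0.68). For Gas6 they were Slc12a4 (0.95), Efemp2 (0.94), Slc7a10 (0.94) and Lrp10 (0.93). For Pros1 they were Slc7a2 (0.90), Pdpn (0.89), Nfe2l2 (0.88) and Ggta1 (0.88).

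The other genes of the pathway were taken from 7 lists with 94 genes, of which 89 were tested. Over all treatments 18 rose and 3 fell in 3xTg, 23.6% of those tested against 14.4% of all genes. With vehicle 8 rose and 3 fell, 12.4% of those tested against 13.1% of all genes. With NAVI 11 rose and 0 fell, 12.4% against 5.98%. With DQ 1 rose and 0 fell, 1.12% against 3.05%. In each of the 4 drug comparisons above 0 of 89 passed by edgeR. The lists were chosen with earlier results of these data known, and the counts are descriptions.

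Other receptors and bridges for phosphatidylserine held the most genes that rose, 7 of 20 tested, with a median log2 difference of 0.18. Trem2, a lipid-sensing receptor of microglia, rose by 0.93 (SE 0.125, edgeR adjusted p = 8.32e-06). C1qb and C1qa, complement subunits that bind apoptotic cells, rose by 0.61 and 0.63 (edgeR adjusted p = 9.98e-05 and 0.000167). Mfge8, another secreted bridge, was at -0.00 with an edgeR adjusted p of 0.994. With NAVI 6 of the 20 rose, Trem2 by 1.28 and C1qb by 1.02.

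Among proteases that cut membrane receptors and their regulators, 2 of 8 rose and 1 fell. Adam17, the protease known to cut Axl and Mertk, rose by 0.34 over all treatments (SE 0.0536, edgeR adjusted p = 6.64e-05) and by 0.48 with vehicle (edgeR adjusted p = 0.000841). Timp1, an inhibitor of metalloproteases, rose by 1.31 (SE 0.237, edgeR adjusted p = 0.000343) from a low mean level of 0.864 CPM. Tspan5, a tetraspanin partner of Adam10, fell by 0.21 (edgeR adjusted p = 0.00365).

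Of 8 genes for vitamin K dependent carboxylation, which makes the ligands functional, 2 rose. Dhcr7 of cholesterol synthesis rose by 0.17 (edgeR adjusted p = 0.00416), and Calu, an inhibitor of the carboxylase, rose by 0.11 (edgeR adjusted p = 0.0390). Ggcx, the carboxylase itself, was at -0.05 with an edgeR adjusted p of 0.600. Of the 12 genes around the nuclear receptors LXR and PPAR, which are known to induce Mertk and Axl, Apoe rose by 0.32 (edgeR adjusted p = 0.0258) and Abcg1, a lipid exporter, fell by 0.11 (edgeR adjusted p = 0.0377).

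Of 14 genes of engulfment signalling 3 rose: Rac1, the GTPase of the phagocytic cup, by 0.13 (edgeR adjusted p = 0.00120), Vav1, an exchange factor of blood lineage cells, by 0.38 (edgeR adjusted p = 0.00273), and Dock1, a Rac activator, by 0.15 (edgeR adjusted p = 0.0261). Rac1 was also the 1 gene of the 7 lists that rose with DQ, by 0.22 (edgeR adjusted p = 0.0103). In the list of 16 genes of TAM signalling and of brakes on inflammation, Il10ra, a receptor subunit for interleukin 10, rose by 0.42 and Ifnar2, a subunit of the type I interferon receptor, by 0.14 (edgeR adjusted p = 0.00277 and 0.0358). Of 11 tested genes that expose phosphatidylserine on cells, 0 passed by edgeR over all treatments.

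Within single treatments, the pathway genes with the smallest p in each list were partly others. With vehicle, Timp1 rose by 1.71 (edgeR adjusted p = 0.00720), Lgals3, a secreted galactose-binding lectin, by 1.15 (0.0231) and Calu by 0.23 (0.00815). Abcg1 fell by 0.26 (edgeR adjusted p = 0.00326), Elmo2, a partner of Dock proteins, fell by 0.23 (0.0495), and Grb2, an adaptor of receptor tyrosine kinases, fell by 0.12 (0.0416). With NAVI, Timp1 rose by 2.23 (edgeR adjusted p = 0.00232), Rhbdf1, a regulator of Adam17, by 0.96 (0.0169), Apoe by 0.79 (0.00911), Vav1 by 0.59 (0.0209) and Dhcr7 by 0.34 (0.00712). Differences between treatments were not tested for these genes.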

How the data were processed

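Bulk hippocampal RNA of 28 libraries was sequenced from a stranded poly(A) kit with paired reads of 100 bases, per the labels' protocols. The values are raw gene counts deposited by the authors in 1 table of 24062 genes. The submitters' processing notes name STAR, Subread, featureCounts and mm10, while the sources used here give no versions, annotation or strand setting. Members and lists were chosen with earlier results of these data known.

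Genes were filtered with filterByExpr (7693 removed) and fitted over all 28 libraries with edgeR 4.0.16 in R 4.3.3 (TMM factors, 1 mean per group, quasi-likelihood test). P-values were adjusted by Benjamini-Hochberg over 16369 genes at a threshold of 0.05. The SE is the log2 difference divided by the square root of F, and intervals are 95% with 21 residual degrees of freedom. CPM on the log2 scale used a prior count of 2. Vehicles were matched to drugs by the last letter of their label, and WT has 1 vehicle. Alternatives used DESeq2 1.42.0 and limma 3.58.1, other scaling and filters, GC correction, tissue scores and left-out libraries. Correlations used 100000 permutations within groups. Within groups, all pairs of libraries differed by more than sampling noise (chi-square per degree of freedom of at least 12.76).

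Named genes were the 5 members, up to 3 genes per pathway list past the threshold over all treatments, up to 2 per list in each other tested comparison, and the 4 genes most alike each member. Mfge8 and Ggcx, and the marker genes App, Prox1, Wfs1 and Ttr, were named outside that rule after their values were seen. Some genes that the rule names are not reported here, and of the promoter motifs searched only the GC box is. Tested on simulated data with 200 of 16369 genes changed, the fit with vehicle recovered 62% of genes changed 1.25-fold and 92% of those changed 1.5-fold, with 3.80% false calls. For DQ against VehD in 3xTg these were 38% and 78%, with 6.06% false calls. The changed genes were drawn from the more highly expressed ones, and each gene was simulated independently. Spread that genes share, as with the tissue scores and the GC slope, was not simulated, so the rates may be too favourable for these libraries.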

Additional observations from a re-analysis of the deposited data

Results flagged for a closer look

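Among the 35 combinations of a gene and a group, 3 held a library far from its other 3, and chance gives about 1 in 20. Axl was at 71.1 CPM in 3xTg VehD replicate 4 and at 63.9 to 65.0 CPM in the other VehD libraries. Mertk was at 62.1 CPM in WT NAVI replicate 1 and at 49.5 to 51.1 CPM in the other WT NAVI libraries. Pros1 was at 29.1 CPM in WT DQ replicate 3 and at 19.3 to 20.3 CPM in the other WT DQ libraries, and without that library the genotype difference of Pros1 with DQ was 0.57 on the log2 scale (edgeR adjusted p = 0.0244).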

How the results depend on the processing

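The rise of Axl and Pros1 over all treatments held under all 10 other settings and without any 1 of the 28 libraries, and that of Pros1 with vehicle under all 13 settings and without any 1 of 12 libraries. The count of members passing stayed at 2 over all treatments. It fell from 2 to 1 with vehicle when only the libraries of the comparison were fitted, with VehD or VehN alone, and without the 4 libraries with the highest choroid plexus score. It fell from 2 to 1 with NAVI when only the libraries of the comparison were fitted and without the 8 with the highest thalamus score. Both left-out sets were chosen after seeing the data. Leaving out 1 library gave 1 to 2 with vehicle, 1 to 2 with NAVI and 0 to 1 with DQ. With vehicle, leaving out replicate 3 (0.19, edgeR adjusted p = 0.0614) or 4 (0.17, 0.109) of WT ended the Axl call. It was also lost without the 8 thalamus libraries (0.12, edgeR adjusted p = 0.186), where Gas6 passed, and without the 4 choroid plexus libraries (0.14, 0.0654). The cause was not tested.

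Reversed differences were of members that did not pass. With limma-voom, DQ against VehD gave 0.0027 for Mertk and 0.010 for Pros1. With the GC trend removed, Gas6 gave 0.10 with vehicle and 0.0077 over all treatments. DQ against VehD then gave 0.012 for Mertk and 0.0080 for Pros1, and NAVI in WT gave 0.057 for Tyro3, 0.053 for Axl and -0.0018 for Mertk. With tissue scores as covariates, Gas6 gave 0.068 for DQ against VehD, -0.036 for DQ in WT and 0.10 for the DQ difference between genotypes. VehN alone gave 0.016 for Gas6, and leaving out the 8 thalamus libraries gave 0.021 for Mertk with NAVI.

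Leaving out 1 library reversed the sign of these differences. NAVI in WT ran from -0.040 to 0.030 for Axl, from -0.046 to 0.11 for Mertk and from -0.10 to 0.026 for Tyro3. Gas6 ran from -0.066 to 0.026 over all treatments, from -0.15 to 0.093 with vehicle, from -0.26 to 0.050 for DQ against VehD and from -0.023 to 0.25 for DQ in WT. Mertk ran from -0.21 to 0.015 for genotype with NAVI and from -0.061 to 0.064 for DQ against VehD. Pros1 ran from -0.079 to 0.047 for DQ against VehD, from -0.032 to 0.19 for DQ in WT and from -0.21 to 0.0079 for the DQ difference between genotypes. Tyro3 ran from -0.10 to 0.025 for DQ in WT. The Tyro3 difference of NAVI from VehN ran from 0.41 to 0.61.

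The replicate block left the count of members passing at 2 with vehicle, 2 with NAVI, 2 over all treatments and 0 with DQ and in the drug comparisons. Libraries with the same replicate number in different groups had a mean correlation of deviations of 0.030 (-0.40 to 0.46, 84 pairs), against -0.010 (252 pairs) for different numbers. Deviations cancel within each group, so these means depend on each other. No strong pairing by number was seen, and a weaker one was not tested. The replicate block with the GC trend removed gave 0.091 for Gas6 with vehicle and 0.0068 over all treatments, 0.015 for Mertk and 0.010 for Pros1 in DQ against VehD, and 0.060 for Tyro3 and 0.054 for Axl with NAVI in WT.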
